A study of Mus musculus with 6 samples.

Results

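The organic ion and drug transporter genes of the kidney were taken by symbol from a deposited table of 7373 genes. They were the rows whose symbols start with Slc22a, Slc47a, Slc17a, Slco, Abca, Abcb, Abcc, Abcd or Abcg. Of 38 such rows 35 were used: Slc22a28, Slc22a30 and Slco1a1 were left out by name, and none of the 38 was dropped for being at 0 in control 3. The 35 comprised 15 Slc22a, 1 Slc47a, 3 Slc17a, 4 Slco, 3 Abca, 3 Abcb, 3 Abcc, 2 Abcd and 1 Abcg genes. Messenger RNA was sequenced from whole kidneys of adult male FVB/N mice. The 3 transgenic kidneys came from mice that overexpress CryAB, a small heat shock protein, carrying the R120G mutation, before the onset of heart failure. The α-myosin heavy chain promoter drives the transgene in cardiomyocytes, so the kidney is not the tissue in which it is meant to act. The 3 control kidneys came from mice of the same strain matched for age and sex, whose genotype is labelled only as control. The labels speak of triplicates of kidneys from these animals and do not say outright that each sample is a different mouse. The p-values rest on the spread among 6 samples, part of which may be technical. The title of the series names susceptibility to acute kidney injury in presymptomatic cardiomyopathy; here the question is whether transporter transcripts differ before any injury.

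Proximal tubule cells clear drugs, toxins and metabolic waste that the glomerulus filters poorly. Solute carriers of the SLC22 family take organic anions and cations up from the blood side, anions in exchange for dicarboxylates and cations down the membrane potential. Proton-coupled antiporters, SLC17 carriers and ATP-driven ABC pumps pass them across the apical membrane into the urine. Other SLC22 carriers in the same membrane recover urate and carnitine, and many ABC proteins move lipids or metabolites within the cell and serve no drug transport.

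The libraries held 23.5 to 47.6 M estimated counts over the listed genes. Control 3 stood apart from the rest. The leading principal component (54.1% of variance) placed it at 23.1 and the other 5 libraries between -10.4 and 0.98, and 178 rows, all of those matched to a chromosome lying on X or Y, were at 0 there. Those rows were left out of the test, and values without control 3 are given beside many, but not all, of the results that it moved. The kidney origin of the libraries showed in all 10 general markers of the proximal tubule, which were all listed and together took 17259 to 20592 CPM, the count scaled to a common library size. Cryab, whose reads may come from the mouse's own gene or from the transgene, averaged 242 CPM among the 3 controls (SD 44.2) and 186 CPM among the 3 transgenic kidneys (SD 7.88). The groups did not overlap, and edgeR gave an adjusted p of 0.997. Control 3 was the highest, and the log2 fold change of -0.38 became -0.22 without it.

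The transporter genes kept nearly the same level in transgenic and control kidneys. Tested with edgeR over 7194 genes at an adjusted threshold of 0.05, none of the 35 was called, and 1 gene in all was, Ren1 for renin (0.0139% of all genes). At an unadjusted p under 0.05 there were 2 of the 35, Slc22a8 and Slco3a1, against 1.82% of all genes. DESeq2 also called none of the 35, and 2 of all genes (0.0278%). Limma voom called none of the 35, and 1 of all genes. Of the 35 genes 20 were higher and 15 lower. Their median log2 fold change (transgenic minus control) was 0.02, against 0.00 over all genes. Without control 3, where edgeR called 0.0278% of all genes and again none of the 35, it was 14 higher and 21 lower, with a median of -0.02. All 35 had an adjusted p of 0.997, so adjusted p-values are not repeated gene by gene.

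The intervals show how large a difference these 6 kidneys leave room for. In 32 of the 35 genes the 95% interval of the log2 fold change lay wholly within 1.5-fold in either direction, and in all 35 within 2-fold. Over all genes the share within 1.5-fold was 89.6%, against 91.4% of the 35. The 3 with wider intervals were Slco1a6, Slco4a1 and Abcc6. The lowest log2 fold change was -0.42, for Slco4a1, and the highest 0.26, for Slc22a8. Of the 35 genes 27 lay within 0.1 of 0 on the log2 scale (77.1%, against 62.3% of all genes). In counts simulated from these libraries, the test recovered 98% of 2-fold and 63% of 1.5-fold changes over all genes. Each simulated run held 200 changed genes and drew every gene independently, while in these kidneys 1 gene in all was called. The adjustment is stricter where fewer genes change, so these shares may overstate what the test could recover here. The smallest estimated count of any of the 35 genes in any kidney was 167, for the pseudogene Slc22a13b-ps.

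**Figure D1:**
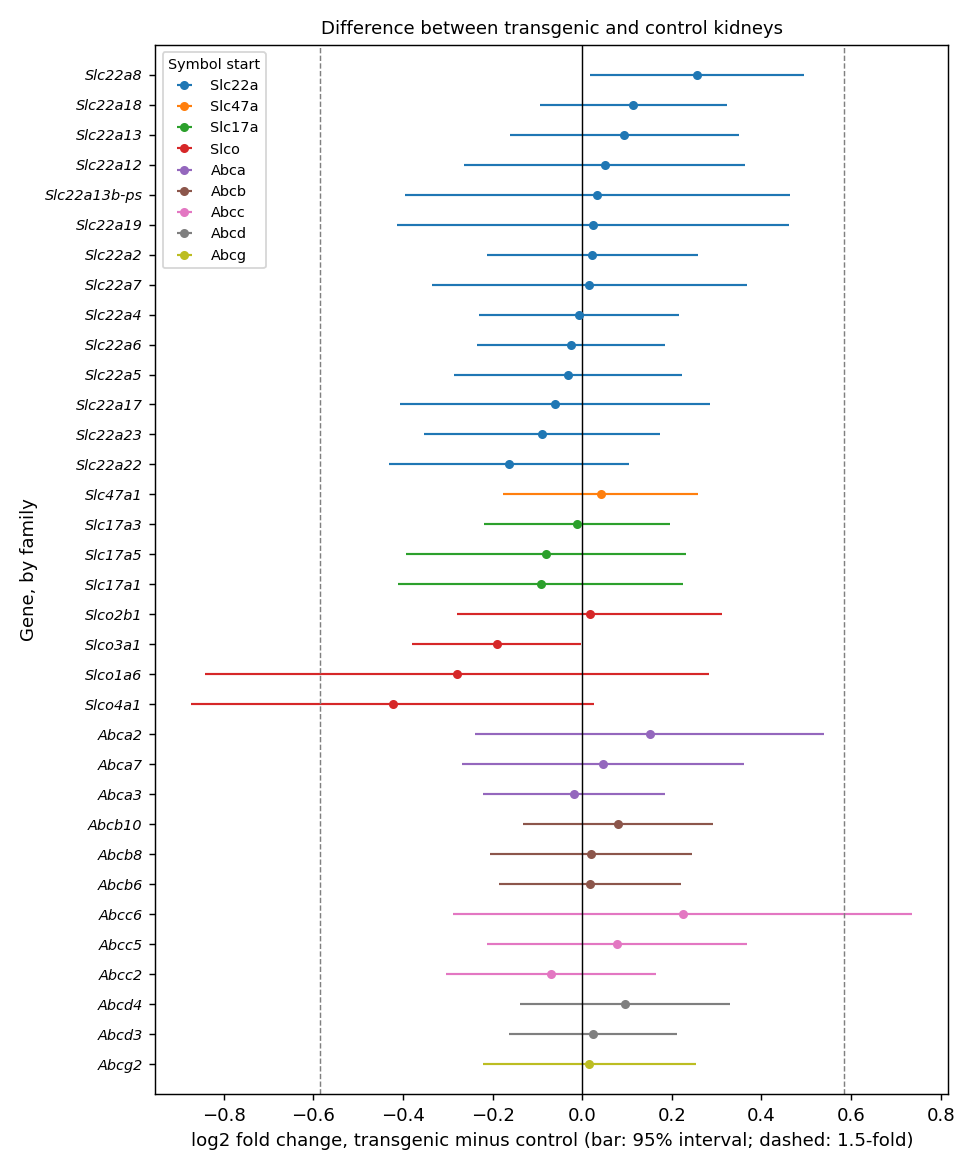
Log2 fold change of 34 of the 35 genes (x axis, transgenic minus control), grouped by family (y axis, colours), with 95% intervals as bars and 1.5-fold marked by dashed lines. All but 2 intervals cross 0, those of Slc22a8 and Slco3a1, and 3 reach past 1.5-fold, those of Slco4a1, Slco1a6 and Abcc6.

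By median level per length the carriers of the SLC families lay far above the ABC transporters, though single genes of both kinds overlapped. Levels were compared as CPM per kilobase of exon (CPM per kb), which divides out transcript length. The 23 SLC genes had a median level of 105 CPM per kb and the 12 ABC genes one of 15.8, where all listed genes had a median of 17.6. All 12 genes above 100 CPM per kb were SLC carriers. Among those at the top were Slc22a18 at 501, Slc22a12 at 367, Slc47a1 at 346, Slc22a6 at 307, Slc17a1 at 276 and Slco1a6 at 253 CPM per kb. Abca3 led the ABC genes at 89.8, followed by Abcg2 at 64.3 and Abcd3 at 59.9 CPM per kb. Some SLC genes lay below these, such as Slc22a17 at 12.9, Slco4a1 at 9.64 and Slco2b1 at 4.97 CPM per kb. At the bottom stood Abcc2 at 4.04 CPM per kb, 124 times below Slc22a18. In 27 of 34 adjacent pairs in this order the ranges of the 6 kidneys overlapped. These ranges do not compare the genes within the same kidney, so an overlap does not show that a pair cannot be ranked. Slc47a1 lay above Slc22a6 in each kidney although their ranges overlapped. Slc22a12 lay above Slc47a1 in some kidneys and below it in others. The pairs whose ranges did not overlap included Slc22a18 over Slc22a12, Abca3 over Abcg2 and Slc22a22 over Slc22a13. The table lists only genes above a minimum level. Slco4c1, Abcb1a and Abcc4, also known for a role in the kidney, were not analysed here.

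**Figure D2:**
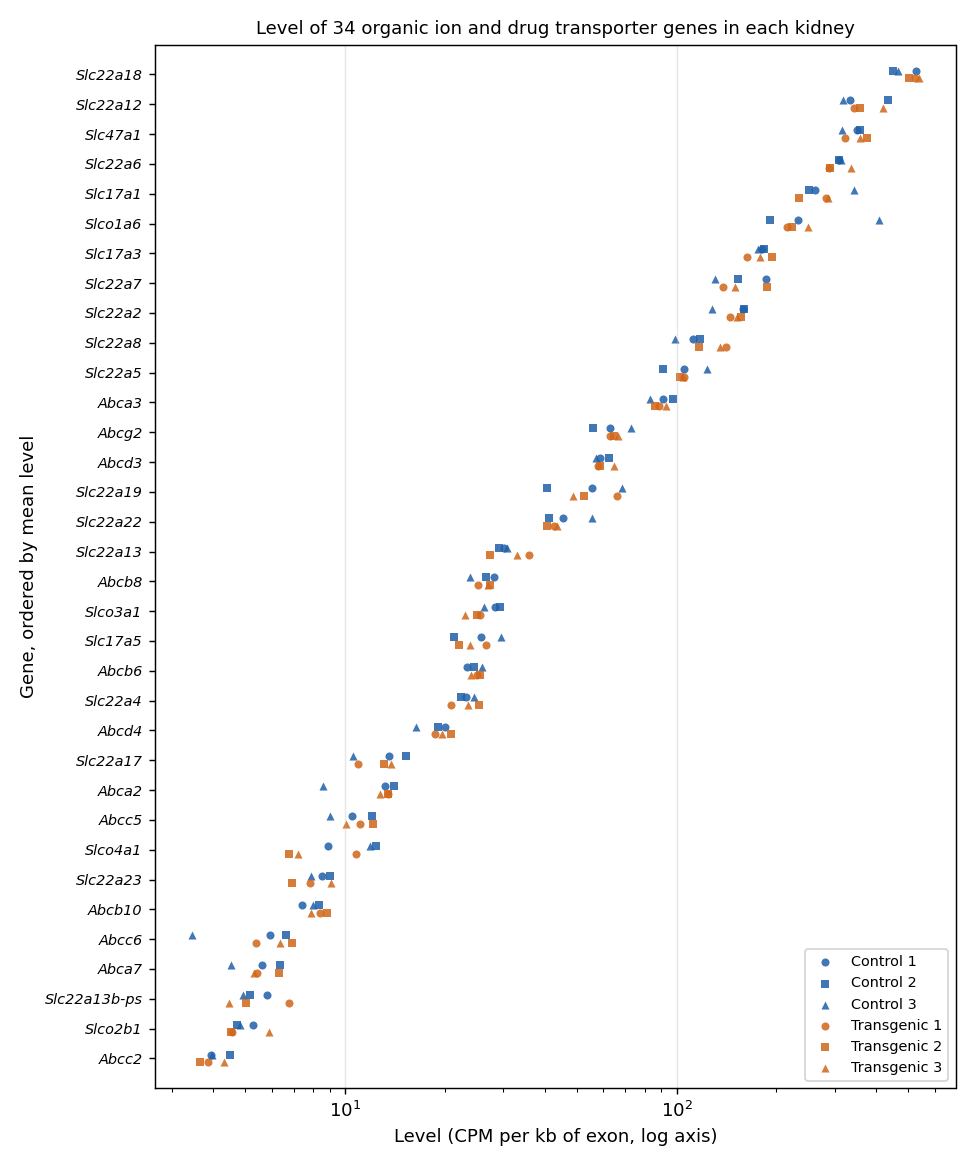
Level of 34 of the 35 genes in each kidney (x axis, CPM per kb of exon, log axis; y axis, genes ordered by mean level), with controls in blue and transgenic kidneys in orange, and marker shapes for kidneys 1 to 3. The order runs from Slc22a18 at 501 to Abcc2 at 4.04 CPM per kb, and the symbols of both groups lie among each other in all genes except Slco3a1.

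Organic anion uptake from the blood rests on Slc22a6 and Slc22a8, which encode the transporters OAT1 and OAT3. These carry para-aminohippurate, diuretics, antivirals and uremic toxins into the proximal tubule. The genes are neighbours on chromosome 19 (mm10), Slc22a8 at 8591254 to 8611835 and Slc22a6 at 8617996 to 8628299, with a gap of 6.16 kb between them. Sequences upstream of a start site are shown because, of the genes with a promoter sequence, they alone hold the core letters bound by HNF1, a transcription factor family of the proximal tubule. Each is the 250 bases before the start site that the RefSeq promoter table gives (GRCm38.p6), on the gene's own strand from 5′ to 3′. The window of Slc22a8 lies inside the gene span given above, before a start site internal to that span. The core letters GTTAAT, or their reverse complement ATTAAC, are in capitals where they occur. Slco4a1, which had the largest fold change of the 35, is shown for comparison.
Slc22a6, chr19:8617746-8617995, plus strand: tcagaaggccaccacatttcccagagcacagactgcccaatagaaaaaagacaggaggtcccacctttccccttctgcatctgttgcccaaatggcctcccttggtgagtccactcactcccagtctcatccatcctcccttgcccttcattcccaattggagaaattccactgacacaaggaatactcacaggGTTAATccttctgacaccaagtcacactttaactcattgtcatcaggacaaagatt
Slc22a8, chr19:8592932-8593181, plus strand: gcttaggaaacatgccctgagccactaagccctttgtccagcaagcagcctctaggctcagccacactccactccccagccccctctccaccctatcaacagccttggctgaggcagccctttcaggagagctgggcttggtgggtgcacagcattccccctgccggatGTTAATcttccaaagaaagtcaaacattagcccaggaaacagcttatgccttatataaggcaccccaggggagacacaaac
Slco4a1, chr2:180455995-180456244, plus strand: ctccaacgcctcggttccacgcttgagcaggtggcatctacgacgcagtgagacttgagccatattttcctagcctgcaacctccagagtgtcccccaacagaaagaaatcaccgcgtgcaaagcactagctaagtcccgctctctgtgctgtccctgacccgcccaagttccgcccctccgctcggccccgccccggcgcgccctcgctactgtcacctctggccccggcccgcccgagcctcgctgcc

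The core letters lie 56 bases before the start in Slc22a6 and 81 bases before it in Slc22a8. Promoter sequences were given for 27 of the 35 genes, and 2 of these 27 held them on either strand (7.41%), near the share over the 27025 genes with a sequence (7.49%). The letters CAAAGTCCA of HNF4, searched on both strands, were in none of the 27 and in 0.451% of all genes. G and C made up 48.4% of the window of Slc22a6, 55.2% of that of Slc22a8 and 64.8% of that of Slco4a1, where the median of all genes was 52%. A match of letters is a description of the sequence and not a binding site.

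Slc22a8 stood at 391, 411 and 343 CPM in controls 1, 2 and 3 and at 491, 407 and 469 CPM in transgenic kidneys 1, 2 and 3. Transgenic kidneys 1 and 3 lay above all controls, while transgenic kidney 2 lay just under control 2, so the groups overlapped. The means were 381 ± 34.7 (SD, n = 3) and 456 ± 43.3 CPM (SD, n = 3), a log2 fold change of 0.26 ± 0.10 (SE) with an interval of 0.02 to 0.50. The difference did not pass the test after adjustment, and stayed between 0.19 and 0.33 whichever library was left out. Slc22a6, the most abundant of the 35 in CPM, stood at 1228, 1226 and 1244 CPM in controls and at 1148, 1155 and 1333 CPM in transgenic kidneys. The 3 controls were nearly equal, and the transgenic kidneys lay on both sides of them. Its log2 fold change was -0.02 ± 0.09 (SE), with an interval of -0.23 to 0.19. Slc22a7, for the transporter OAT2, ranged from 274 to 392 CPM, with both groups reaching 392, and differed by 0.02, or by -0.10 without control 3.

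OCT2, encoded by Slc22a2, is a route of entry for organic cations, and the proton antiporter MATE1, encoded by Slc47a1, a route of exit. Neither gene differed by more than 0.1 on the log2 scale. Slc47a1 stood at 925, 945 and 832 CPM in controls and at 851, 986 and 943 CPM in transgenic kidneys. The lowest value was that of control 3, and the groups overlapped, with a log2 fold change of 0.04 ± 0.10 (SE) and an interval of -0.18 to 0.26. It was -0.01 without control 3. Slc22a2 stood at 393, 397 and 317 CPM in controls and at 360, 388 and 376 CPM in transgenic kidneys. Control 3 was again the lowest, and the transgenic values lay inside the range of the controls (0.02 ± 0.10, SE; interval -0.21 to 0.26). Without control 3 the difference was -0.08.

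The carnitine carrier OCTN2, encoded by Slc22a5, retrieves carnitine from the filtrate, and OCTN1, encoded by Slc22a4, carries ergothioneine. Slc22a5 stood at 322, 279 and 377 CPM in controls and at 322, 314 and 321 CPM in transgenic kidneys. The transgenic values lay within the range of the controls, with a log2 fold change of -0.03 ± 0.11 (SE) and an interval of -0.29 to 0.22, and of 0.09 without control 3. Of its 50-base stretches 26.3% also occur in other genes, nearly all in its close relative Slc22a21, so its share of the reads is uncertain. Slc22a4 ranged from 47.3 to 57.3 CPM and differed by -0.01.

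Urate is exchanged by URAT1, encoded by Slc22a12, on the apical membrane, together with carriers of the Slc17a cluster and the pump ABCG2. Of the 6 measured genes on the list of urate and other organic anion carriers 3 were higher and 3 lower, and their median was 0.01 (log2). Slc22a12 stood at 744, 963 and 704 CPM in controls and at 763, 797 and 936 CPM in transgenic kidneys. Control 2 and transgenic kidney 3 were the 2 high samples, and the groups overlapped (0.05 ± 0.14, SE; interval -0.26 to 0.36). It was -0.04 without control 3. Slc17a3, for the apical carrier NPT4, stood at 789, 801 and 767 CPM in controls and at 711, 848 and 779 CPM in transgenic kidneys. The transgenic values were more spread than the controls and enclosed them, with a log2 fold change of -0.01 ± 0.09 (SE).

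Slc17a1, for NPT1, an anion carrier of the same cluster on chromosome 13, stood at 536, 515 and 706 CPM in controls and at 581, 479 and 587 CPM in transgenic kidneys. Control 3 was highest, and the log2 fold change was -0.09 ± 0.14 (SE) with all kidneys and 0.06 without control 3. Slc22a22, which encodes a prostaglandin carrier of the renal tubule, stood at 111, 101 and 135 CPM in controls and at 104, 99.2 and 106 CPM in transgenic kidneys. Its log2 fold change of -0.16 ± 0.12 (SE) fell short of the test and was -0.04 without control 3. Slc22a13, a carrier of urate and nicotinate, ranged from 54.7 to 71.5 CPM and differed by 0.09, and its neighbouring pseudogene Slc22a13b-ps ranged from 6.51 to 9.90 CPM and differed by 0.03. Of the 50-base stretches of Slc22a13 36.0% occur in the pseudogene as well, so reads may be split between the pair. Slc22a19, for the anion exchanger OAT5, ranged from 81.2 to 137 CPM and differed by 0.02, and by 0.22 without control 3.

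Among the remaining SLC22 genes Slc22a18, a carrier gene of an imprinted cluster, had the highest level per length of all 35. It stood at 879, 749 and 775 CPM in controls and at 869, 835 and 896 CPM in transgenic kidneys. Control 1 reached into the transgenic range, with a log2 fold change of 0.11 ± 0.09 (SE) and an interval of -0.09 to 0.32. Slc22a17, which encodes a receptor of lipocalin 2, ranged from 25.4 to 36.6 CPM and differed by -0.06, or by -0.20 without control 3, and Slc22a23 ranged from 43.3 to 56.8 CPM and differed by -0.09. Slc17a5, for the lysosomal sialic acid exporter sialin, ranged from 68.8 to 95.5 CPM and differed by -0.08, or by 0.04 without control 3.

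Organic anion transporting polypeptides, encoded by the Slco genes, carry thyroid hormones, prostaglandins, steroid conjugates and bile salts. Of 4 measured genes 3 were lower in transgenic kidneys, their median being -0.23 (log2), and none passed the test. Without control 3 the median was -0.12, with 3 again lower. Slco3a1, on chromosome 7 at 74275418 to 74554780 (mm10), carries prostaglandins and thyroxine. It stood at 207, 213 and 191 CPM in controls and at 185, 182 and 167 CPM in transgenic kidneys. It was the 1 gene of the 35 whose groups did not overlap, against 5.98% of all genes in either direction and 3.02% in this direction. None was higher without overlap, against 2.96% of all genes. With 1 library left out, 2 to 6 of the 35 did not overlap, where 10.1% to 24.6% of all genes did not. The means were 203 ± 11.4 (SD, n = 3) and 178 ± 9.44 CPM (SD, n = 3), a log2 fold change of -0.19 ± 0.08 (SE). Leaving out 1 library gave -0.23 to -0.15. In whole kidney a lower value can mean fewer cells that express a gene or less RNA in each, which cannot be told apart.

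Slco4a1, a thyroid hormone carrier on chromosome 2 at 180456226 to 180474853 (mm10), was low and variable, at 28.7, 39.9 and 38.4 CPM in controls and at 34.8, 21.8 and 23.2 CPM in transgenic kidneys. Transgenic kidneys 2 and 3 lay below all controls, while transgenic kidney 1 lay within their range. The log2 fold change was -0.42 ± 0.20 (SE), with an interval of -0.87 to 0.03, and ranged from -0.66 to -0.30 with 1 library left out. Slco1a6, a rodent anion carrier of the kidney, stood at 654, 538 and 1151 CPM in controls and at 605, 628 and 699 CPM in transgenic kidneys. Control 3 alone was high, at 2.14 times the lowest kidney, control 2. The log2 fold change was -0.28 ± 0.25 (SE) with all kidneys and 0.11 without control 3. Slco2b1, a carrier of steroid sulfates, ranged from 24.0 to 31.3 CPM and differed by 0.02.

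**Figure D3:**
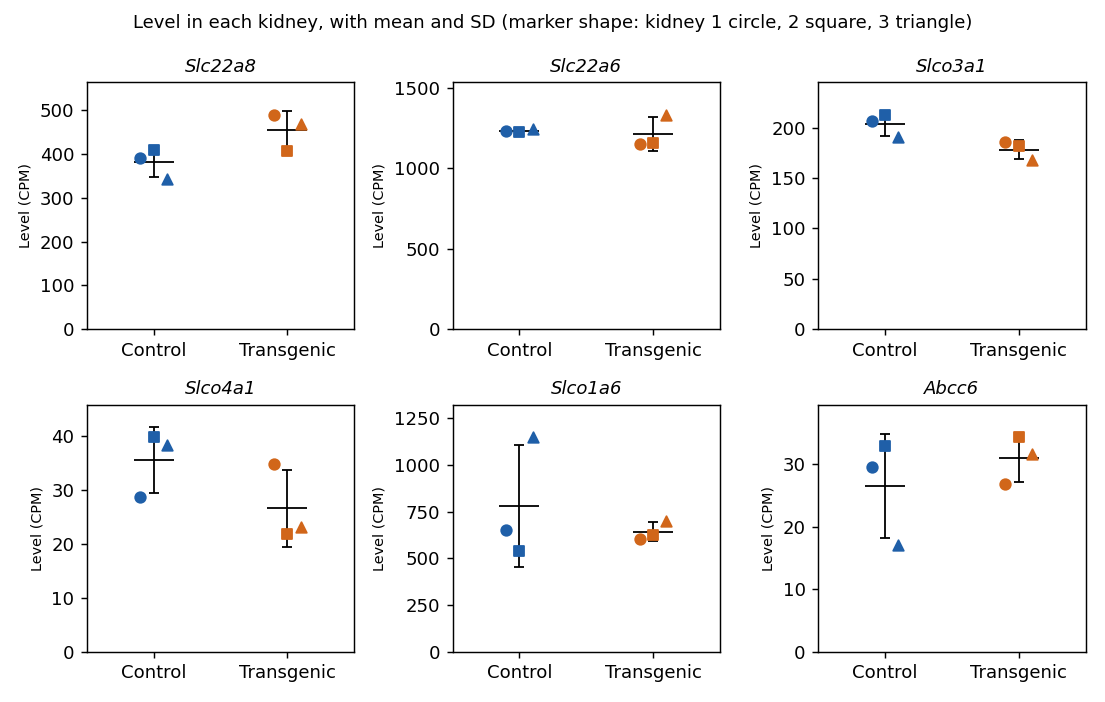
Level in CPM (y axes, from 0) of 6 genes in each control and transgenic kidney (x axes), with group mean and SD as bars. The groups are separate for Slco3a1, overlap at 1 kidney for Slc22a8, and in Slco1a6 and Abcc6 control 3 (blue triangle) lies away from the other 5.

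On the list of drug and conjugate efflux pumps 4 genes were measured. With all kidneys Abcg2, Abcc2 and Abcc5 differed by less than 0.1 on the log2 scale, while Abcc6 had a wide interval. ABCG2 pumps urate and drugs into the urine, and its gene Abcg2 stood at 365, 324 and 420 CPM in controls and at 365, 373 and 384 CPM in transgenic kidneys. The 3 transgenic values lay inside the range of the controls (log2 fold change 0.02 ± 0.10, SE; interval -0.22 to 0.25). Without control 3, the highest of the 6, it was 0.12. Abcc2, for the conjugate pump MRP2, stood at 31.7, 36.0 and 32.0 CPM in controls and at 31.0, 29.3 and 34.6 CPM in transgenic kidneys (-0.07 ± 0.10, SE). Abcc5, for MRP5, an exporter of nucleotides and their analogs, stood at 65.0, 74.8 and 55.9 CPM in controls and at 68.8, 75.1 and 62.6 CPM in transgenic kidneys (0.08 ± 0.13, SE). In both genes the groups overlapped, and Abcc5 differed by -0.02 without control 3.

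Abcc6, whose loss causes ectopic mineralization, stood at 29.5, 32.9 and 17.1 CPM in controls and at 26.9, 34.4 and 31.6 CPM in transgenic kidneys. Control 3 alone was low. The log2 fold change of 0.22 ± 0.22 (SE), with an interval of -0.29 to 0.74, became -0.02 without that library.

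The ABC transporters of lipids, mitochondria, peroxisomes and lysosomes lay close to 0 as well. Abca3, known for loading surfactant lipids in the lung, stood at 588, 631 and 537 CPM in controls and at 573, 557 and 603 CPM in transgenic kidneys (log2 fold change -0.02 ± 0.09, SE). Abcd3, which brings fatty acyl-CoA esters into the peroxisome, stood at 213, 227 and 206 CPM in controls and at 210, 212 and 234 CPM in transgenic kidneys (0.02 ± 0.08, SE). Abcb8, of the inner mitochondrial membrane, stood at 86.3, 81.8 and 73.3 CPM in controls and at 77.6, 84.2 and 82.9 CPM in transgenic kidneys (0.02 ± 0.10, SE). The groups overlapped in all 3 genes.

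Abcb6, a porphyrin carrier, differed by 0.02, and many of its 50-base stretches also occur in transcripts of Gm29253, so its share of the reads is uncertain. Abcb10, of the mitochondrial membrane, differed by 0.08, and Abcd4, which exports cobalamin from the lysosome, by 0.10, or by 0.01 without control 3. Abca2 and Abca7, both lipid carriers, differed by 0.15 and 0.05, and by -0.04 and -0.08 without control 3. Of the 12 ABC genes 10 were higher, with a median of 0.04 (log2), and 8 of the 12 had their lowest value in control 3. Without that library 4 of the 12 were higher and 8 lower, with a median of -0.02, so the tally turned over.

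The sign of many of these small differences depended on control 3. It held the highest or lowest value of the 6 kidneys in 23 of the 35 genes (65.7%), near the 67.4% of all genes. It was highest in 9, among them Slco1a6, Slc17a1, Slc22a5 and Abcg2, and lowest in 14, among them Slc22a8, Slc47a1, Slc22a2, Slc22a12 and Abcc6. Leaving it out turned the sign of 18 of the 35 log2 fold changes and moved their range to between -0.37 and 0.22. The sign was the same whichever library was left out in 10 of the 35 genes, Slc22a8, Slco3a1, Slco4a1 and Slc22a22 among them. The highest value exceeded the lowest by more than 2 times in Slco1a6 and Abcc6 only, and by less than 1.5 times in 29 of the 35 genes (82.9%).

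**Figure D4:**
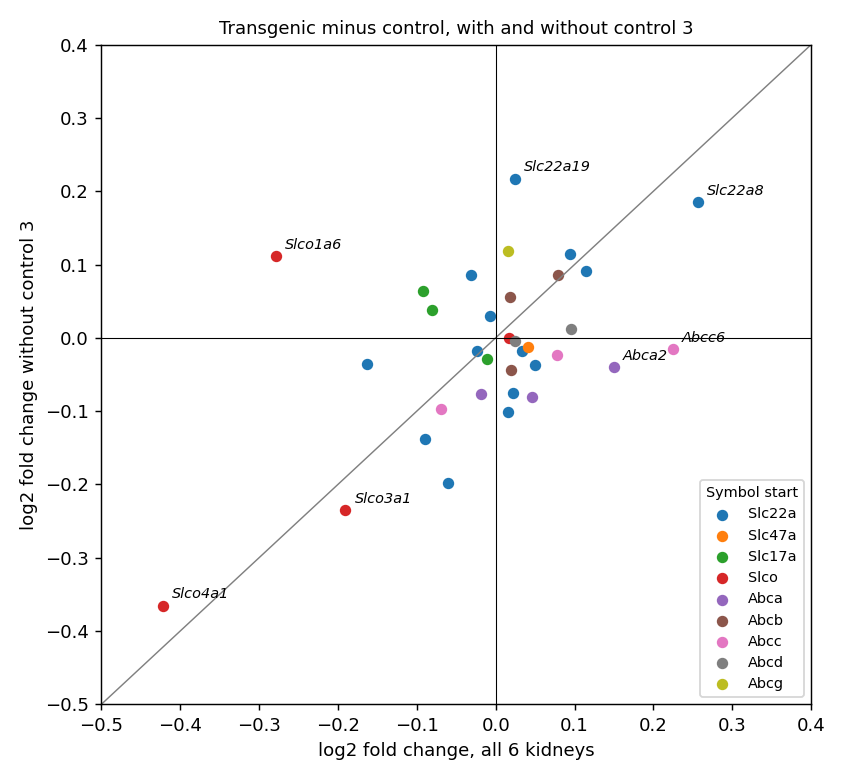
Log2 fold change of 34 of the 35 genes (transgenic minus control) with all 6 kidneys (x axis) and without control 3 (y axis), coloured by family, with the line of equal values in grey. Slc22a8, Slco3a1 and Slco4a1 keep their sign, while Slco1a6 moves from -0.28 to 0.11 and Abcc6 from 0.22 to -0.02.

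Genes on the lists outside these families that serve or regulate the same transport did not pass the test either. Of 29 other transporters of organic solutes 18 were measured, 13 higher and 5 lower, their median being 0.02 (log2), and none passed the test. Without control 3 there were 8 higher and 10 lower, with a median of -0.02. Those with the smallest p-values were Slc5a8, a sodium-coupled monocarboxylate carrier (-0.20 ± 0.09, SE), and Slc19a1, the reduced folate carrier (0.15 ± 0.10, SE). Slc5a8 stood at 262, 239 and 284 CPM in controls and at 226, 239 and 217 CPM in transgenic kidneys, and Slc19a1 at 77.2, 77.4 and 74.6 CPM and at 81.4, 78.3 and 94.9 CPM. In both the groups did not overlap, by a narrow margin. Over all genes 5.98% did not overlap in either direction. Of 27 regulators and scaffolds 22 were measured, 16 higher and 6 lower, with a median of 0.04, and none passed the test. Without control 3 there were 12 higher and 10 lower, with a median of 0.00. On this list 1 gene was lower without overlap and 0 were higher without overlap. Nedd4l, a ubiquitin ligase gene, differed by 0.16 ± 0.12 (SE).

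Markers of the cells that the kidney pieces could hold are given as summed levels. The early proximal tubule (5 of 5 genes) lay at 1111 to 1606 CPM in controls and 1073 to 1424 CPM in transgenic kidneys, and the late proximal tubule (6 of 6) at 3074 to 3506 and 2854 to 3195 CPM. The thick ascending limb (5 of 5) lay at 3034 to 3576 and 2894 to 3224 CPM, the distal convoluted tubule (3 of 4) at 587 to 661 and 526 to 698 CPM, and the collecting duct (7 of 8) at 1039 to 1125 and 917 to 1082 CPM. The endothelium (5 of 8) lay at 399 to 483 and 392 to 400 CPM, macrophages and dendritic cells (8 of 9) at 350 to 400 and 307 to 377 CPM, red blood cells (3 of 7) at 532 to 925 and 499 to 757 CPM, and adipocytes (3 of 6) at 89.6 to 294 and 109 to 166 CPM. In each of these lists the ranges of the groups overlapped, and no gene passed the test with all 6 kidneys. The lowest log2 fold change of the red blood cell list was -2.64. Without control 3 edgeR called Hba-a2 of that list (-3.23, adjusted p of 0.0061), where 0.0278% of all genes were called. Some lists were nevertheless mostly on one side: all 5 genes of the thick ascending limb, 7 of 8 of macrophages and dendritic cells, 3 of 3 of red blood cells and 3 of 3 of adipocytes were lower, and without control 3 these counts were 4, 7, 3 and 3. Of the early proximal tubule 4 of 5 were lower with all kidneys and 1 of 5 without control 3. The late proximal tubule list was split, with 3 higher and 3 lower, and so was the endothelium, with 2 higher and 3 lower. Without control 3 the late proximal tubule had 2 higher and 4 lower, and the endothelium 3 higher and 2 lower. Over all genes 5.98% did not overlap between the groups in either direction. Plvap, an endothelial gene, differed by -0.30 and Slc7a13, an amino acid carrier of the late proximal tubule, by -0.25, both lower without overlap. Eng, another endothelial gene, and Hsd11b2, of the collecting duct, were higher without overlap, by 0.08 and 0.17. No hepatocyte marker was listed. The part of cell make-up in the lower values of Slco3a1 and Slco4a1 was not tested.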

How the data were processed

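RNA of 3 kidney samples from transgenic and 3 from control mice was sequenced on an Illumina HiSeq 2500, per the series' design text. Halved, snap-frozen whole kidneys and column-purified RNA were used, per the labels' protocols. The genome build was mm10, per the submitters' processing notes; neither aligner nor counting program was given in the sources used here. In the file the authors deposited are estimated counts per gene, which are not whole numbers, for genes with an NRPKM between 5.0 and 84233.281 in at least 2 of 6 samples, per the file headers. Another 12 columns of per-sample values match none of these samples and were not used.

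Estimated counts were rounded. The 178 rows at 0 in control 3 were left out; the fit with them is an alternative. The test was edgeR (4.0.16, R 4.3.3) quasi-likelihood with filterByExpr, which removed 1 row, TMM normalization, group as the only term and Benjamini-Hochberg adjustment over 7194 genes, two-sided, at 0.05. CPM use TMM library sizes. Intervals at 95% and SE come from that fit. Exon lengths are the merged exons of the GENCODE M21 basic set, found for all 35 genes; they can overstate genes with several transcripts. Positions come from the RefSeq gene table of GRCm38.p6. Shared sequence is the share of a gene's 50-base stretches found in another gene's GENCODE transcripts. With 3 against 3 an exact permutation test of 1 gene cannot go below p = 0.1.

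The fit was tested on simulated data (7195 rows, 200 changed, 3 runs). Libraries of a group differed by more than sampling noise (chi-square per degree of freedom of at least 23.3 for any pair). The members, gene lists and settings were chosen with earlier results of these data known. Genes with values in every kidney are those without overlap between groups, the 3 smallest p-values in each direction, the highest per length in each family, and 12 named for their role (9 of them listed); of each pathway list the 2 smallest p-values are named; other members are given by range. Values of some genes that this rule or the family names take in are not reported here, but they stay in the counts and medians. The planned comparison of proteins was replaced by that of transcripts. Alternatives were DESeq2 (1.42.0) and its size factors, limma voom (3.58.1) with sample weights, other filters, a robust prior, 1 row per symbol, the replicate block and leaving out each library.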

Additional observations from a re-analysis of the deposited data

How the results depend on the processing

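No alternative called any of the 35 transporter genes: the count stayed at 0 in all 16, the lowest adjusted p of any of them being 0.431. The count over all genes was 1 (Ren1), 2 with DESeq2, 0 with the zeros kept, and 0 to 2 without 1 library. It was 0 without control 1 and without transgenic kidney 1, 2 or 3, and 2 without control 3 (Ren1 and Hba-a2). Transporter genes without overlap numbered 1, and 2 to 6 without 1 library, where 10.1% to 24.6% of all genes did not overlap, since fewer samples are compared. The median log2 fold change of the 35 was 0.017, -0.020 with limma voom and -0.016 to 0.035 without 1 library. Replicate numbers were tried as a block: the count over all genes was 1 and that of transporter genes 0, with a median of 0.019. Deviations of same-numbered kidneys correlated at 0.00, 0.03 and 0.34, so the numbers were not taken to pair them, and not every kidney correlated best with its own number.

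Of 300 values of the 20 genes given in every kidney, 271 kept their direction and 29 changed it, 24 of these on leaving out 1 library. With limma voom the log2 fold changes of Abcb8, Slc17a1, Slc22a2, Slc22a5 and Slc47a1 turned to -0.072, 0.041, -0.066, 0.0072 and -0.015. Without 1 library they ranged from -0.077 to 0.040 for Abca3, -0.044 to 0.072 for Abcb8, -0.024 to 0.19 for Abcc5, -0.016 to 0.41 for Abcc6, -0.026 to 0.064 for Abcd3, -0.071 to 0.12 for Abcg2, -0.18 to 0.064 for Slc17a1, -0.076 to 0.052 for Slc17a3, -0.043 to 0.20 for Slc22a12, -0.076 to 0.079 for Slc22a2, -0.13 to 0.086 for Slc22a5, -0.098 to 0.014 for Slc22a6, -0.013 to 0.099 for Slc47a1 and -0.49 to 0.11 for Slco1a6. The cause of these changes was not tested. Slc22a8, Slc22a18, Slc22a22, Slco3a1, Slco4a1 and Abcc2 kept their direction under every alternative run.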

Other observations

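The transporter genes include several pairs of chromosomal neighbours, and the ratio of levels per length within a pair compares both genes in the same library. For Slc22a8 over Slc22a6 it was 0.364, 0.383 and 0.316 in controls 1, 2 and 3 and 0.489, 0.404 and 0.403 in transgenic kidneys 1, 2 and 3, without overlap between the groups. With 3 against 3 an exact permutation test cannot go below p = 0.1, and this pair was picked out after its values were seen. In 3 other pairs the groups overlapped: the ratio ran from 0.199 to 0.246 for Slc22a4 over Slc22a5 on chromosome 11, from 0.512 to 0.834 for Slc17a3 over Slc17a1 on chromosome 13, and from 0.135 to 0.192 for Slc22a13b-ps over Slc22a13 on chromosome 9. The lowest ratio was that of control 3 in the pairs Slc22a8 over Slc22a6 and Slc17a3 over Slc17a1.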
